A study of Salmo salar with 8 samples.

Results

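The nuclei described here are those of Atlantic salmon gill with transcripts of 1 or both of a pair of genes taken as vascular markers. They lacked a high level of rhag, the gene of a red-cell type ammonia channel. Members were selected on measured counts. A nucleus was a member if its UMIs (unique molecular identifiers, each standing for 1 captured transcript) of LOC106577588, a mucin-5AC-like locus, and LOC106586666, a collagen IV alpha-1 locus called col4a1 here, summed to at least 2 and to at least 1000 CPM (counts-per-million, here of UMIs), and if rhag (LOC106571195) lay under 1500 CPM. Of 19709 nuclei, 149 were members, and a further 52 met the conditions on LOC106577588 and col4a1 but had rhag at 1500 CPM or more (rhag-high vascular nuclei below). The remaining comparisons set the members against the other 19560 nuclei, which include these 52 and are called the rest.

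Nuclei were isolated from frozen gill and sequenced from 8 samples, 2 at each of 4 time points. T1 fish were parr held in constant light, and T2 fish had then spent 8 weeks, as the labels give it, under short days. T3 fish had spent 8 further weeks back in constant light, and T4 fish came from the same cohort as T3 after 24 h in seawater. All fish were of 1 commercial strain raised in freshwater from hatching, and the gill was sampled whole so that every vessel type is mixed. Neither the labels nor the methods say whether each duplicate was a separate fish or a pool, so that p-values refer to these samples only. The main test used below (edgeR) shares its estimate of spread across genes, so that a very small p does not measure a single gene's own spread between samples.

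Endothelial cells line blood vessels and are held together by adhesion proteins such as PECAM1 and claudin-5. They respond to vascular growth factors through receptor tyrosine kinases (KDR, FLT1, TEK) and store von Willebrand factor. In the fish gill, arterial vessels feed lamellae in which blood runs between pillar cells, which are collagen-rich and flank the blood spaces, and a second venous and lymphatic-like system drains the filament. Notch ligands and ephrin-B2 are known from other vertebrates as features of arterial endothelium.

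The libraries held 1748 to 3373 nuclei and 2770081 to 4383507 UMIs each, with medians of 638 to 1031 UMIs per nucleus. There were 49 barcodes found in more than 1 library, 0 to 6 per pair of libraries, and 2 members had such a barcode, with 0 barcodes a member in both libraries. No doublets were removed, and UMIs of free RNA were not subtracted. Hemoglobin subunit transcripts, for example, were found in 98.0% of members and 97.2% of the rest. Intervals given below for shares of nuclei cover counting error only.

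The rule itself fixed the levels of its 3 genes, which are given without a test. LOC106577588 supplied 399 of the UMIs in members, or 1772 CPM against 41.2 CPM in the rest, and col4a1 supplied 100, or 444 CPM against 25.7 CPM. In members rhag stood at 369 CPM, against 4090 CPM in the rhag-high vascular nuclei and 219 CPM in the rest. A group of 99 members had no rhag UMI, 35 had 1 and 15 had 2 or more. The lowest member had 1015 CPM of the gate genes and the highest nucleus left out by that level had 983 CPM, while the highest rhag among members was 1472 CPM and the lowest among rhag-high nuclei 1519 CPM. The gate rested on few UMIs, with exactly 2 in 89 members, and 1060 nuclei with 1 gate UMI and 169 with 2 or more but under the level fell outside it.

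Members were deeper than the rest, which is given without a test because the rule asks for a minimum of UMIs. Their median was 1219 UMIs and 953 genes, against 847 UMIs and 691 genes in the rest, and the median UMIs were higher in members in 8 of 8 samples. Members summed to 225184 UMIs in all, 13528 to 46858 per sample. A single T2 nucleus of 18466 UMIs in replicate 2 supplied 39.4% of the member UMIs of that sample and 8.20% of all, and its UMIs are given below for each named gene of which it held 30% or more.

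Members were rich in endothelial transcripts. The endothelium list had 24 loci, of which 23 were detected in members and 19 passed the filter on low counts, and 18 of these 19 were called higher in members than in the rest by edgeR's quasi-likelihood test at an adjusted p under 0.01, beside 2.57% of all 16156 genes tested. The count was 19 when sums were scaled by library size alone and 18 by DESeq2. Summed over the list, the level in members was 1398 CPM in the lowest sample, 3417 CPM in the median and 5527 CPM in the highest, against 216, 472 and 675 CPM in the rest. SOX18 (LOC106566354) was the locus with no UMI in members, and plvap had 1. For the summed list, the lowest member level lay above the highest level of the rest. This holds for the sums of members, while 35 of the 149 members had no UMI of the list, as described below. Besides those described below, the list included the transcription factor erg (log2 fold change 2.95 ± 0.34 SE, 15 of its 47 UMIs in the deepest nucleus) and the endothelial surface protein mmrn2 (2.92 ± 0.39). It also included the angiopoietin co-receptor TIE1 (LOC106560517, 2.23 ± 0.49) and the sphingosine receptor S1PR1 (LOC106613588, 2.23 ± 0.41). S1PR1 was higher in 6 of 8 samples, and erg, mmrn2 and TIE1 in 7 of 8. The locus tested and not called was fli1, a transcription factor with further copies that were called (log2 fold change 0.92 ± 0.42 SE, adjusted p = 0.0883). Those FLI1 copies (LOC106581097 and LOC106612965) and cld5 turned negative with a gate of 2000 CPM, and cld5 also with members without a rhag UMI. With the main gate LOC106581097 was higher in 5 of 8 samples.

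Among genes chosen as those with the largest changes in the same direction in every sample, LTBP4 led. LTBP4, LOC106612711, encodes a latent TGF-beta binding protein of the matrix. In members it stood at 97.6 CPM in the lowest sample, 1200 CPM in the median and 2513 CPM in the highest, against 1.76, 12.3 and 35.2 CPM in the rest. The ranges did not overlap, and the log2 fold change was 5.79 ± 0.27 (SE, adjusted p = 4.64e-97, edgeR, n = 8 samples). Its 300 UMIs came from 41 members, 66 of them from the deepest nucleus. The claudin locus cldn7a (LOC106608724), of a tight junction family, had 48.8, 179 and 469.5 CPM in members at the lowest, median and highest sample, against 0.502, 3.92 and 7.98 CPM in the rest, a log2 fold change of 5.19 ± 0.35 (SE), with 18 of its 52 UMIs in the deepest nucleus.

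PTPRB (LOC100380677), the receptor phosphatase known as vascular endothelial PTP, had UMIs in 46 members, against 41 for LTBP4. Its level in members ran from 254 CPM through a median of 325 CPM to 768 CPM, against 8.03, 15.2 and 20.5 CPM in the rest, with a log2 fold change of 4.12 ± 0.29 (SE). A further locus named PTPRB, LOC106573126, chosen after its values were seen, was also higher (3.65 ± 0.38). Von Willebrand factor, vwf (LOC106561856), which endothelial cells store for clotting, had 48.8, 95.7 and 341.5 CPM in members, against 2.12, 4.75 and 8.38 CPM in the rest (4.10 ± 0.40), and 12 of its 33 UMIs lay in the deepest nucleus. The adhesion molecule pecam1a had 48.8, 160.0 and 222 CPM in members, against 2.51, 6.66 and 9.89 CPM in the rest (3.92 ± 0.38). Neither gene's ranges overlapped between members and rest.

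Receptors for peptide hormones were also among the genes chosen for the largest changes. CALCRL (LOC106586829), the calcitonin receptor-like receptor, had 127, 441 and 1110 CPM in members at the lowest, median and highest sample, against 8.78, 20.0 and 38.5 CPM in the rest, and the log2 fold change was 3.77 ± 0.30 (SE). Its 123 UMIs included 40 in the deepest nucleus, without which members had 402 CPM. A second locus of this receptor family, LOC106575712, had a log2 fold change of 3.84 ± 0.32 (SE), with 23 of its 72 UMIs in that nucleus. The gene ramp2 encodes the accessory protein that makes CALCRL an adrenomedullin receptor in mammals and was chosen after its values were seen. Its level in members was 488, 1557 and 4311 CPM, against 33.9, 97.5 and 211.5 CPM in the rest (3.21 ± 0.23). Of its 461 UMIs in members, 152 came from the deepest nucleus, and without that nucleus members had 1495 CPM. The remaining genes chosen for the largest changes were a rab effector MyRIP-like locus (LOC106568916, 4.56 ± 0.33), otof (otoferlin, a calcium sensor of vesicle fusion, 4.14 ± 0.40) and flt1 (LOC106579544, a VEGF receptor, 3.76 ± 0.47), all higher in 8 of 8 samples.

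**Figure D1:**
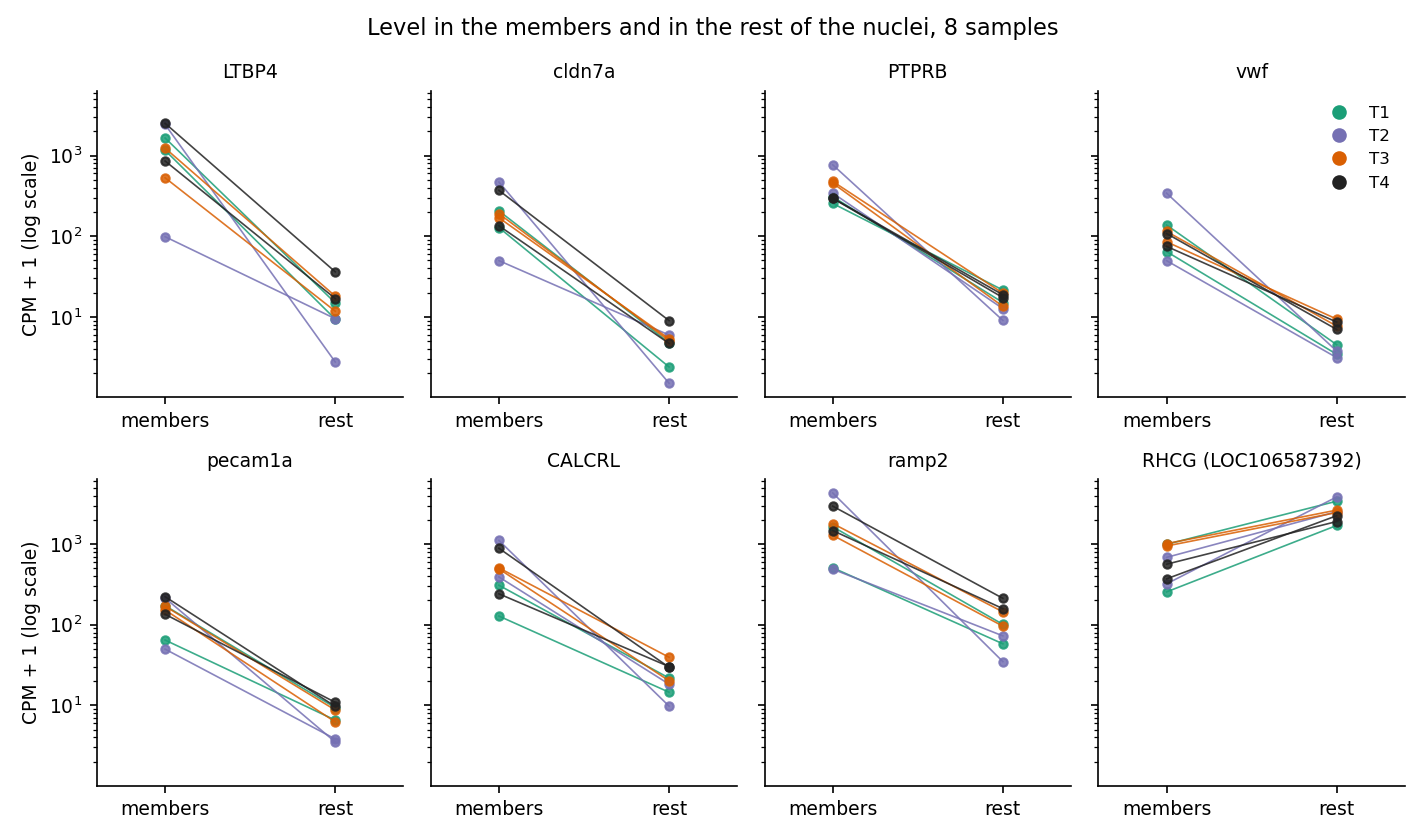
Level of 8 genes in CPM + 1 on a log axis, members left and the rest right, 1 line per sample and colour by time point. LTBP4, cldn7a, PTPRB, vwf, pecam1a, CALCRL and ramp2 were higher in members in 8 of 8 samples, and RHCG (LOC106587392) was lower in 8 of 8.

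Over all genes, the number of calls and their direction moved with the scaling of the sums. With TMM factors 415 genes were called higher (2.57%) and 2029 lower (12.6%), and the median log2 fold change of all genes was -0.82. With library size alone 728 were called higher (4.51%) and 520 lower (3.22%), with a median of -0.12, and DESeq2 gave 422 (2.61%) and 468 (2.90%), with a median of -0.40. The counts given for each list are to be read beside these shares. Genes called under all 3 scalings numbered 354 higher and 433 lower, and every gene called higher with TMM was also called higher by library size. Folds quoted are those of TMM and thus lie lower than folds by library size. A gene called lower that had UMIs in members mostly has the smaller negative fold by library size. Without a UMI in members the folds were nearly equal, as for b3gnt2l (-9.902 by TMM and -9.907 by library size). A gene is described as lower in members only where all 3 scalings called it, unless the scaling is named.

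VEGF, angiopoietin and apelin signalling governs vessel growth and stability, and its list shares receptors such as kdr, flt1 and tek with the endothelium list. Of its 8 loci tested, 6 were called higher and 0 lower (7 higher by library size, 6 by DESeq2). Over all genes tested, 2.57% were called higher by TMM. The median log2 fold change of the list was 2.66, beside -0.82 over all genes tested. The loci called by TMM, other than ANGPT2, are also counted in the endothelium list and are no separate result. The angiopoietin receptor tek had 0 CPM in members of the lowest sample, 242 CPM in the median and 517 CPM in the highest, against 4.26, 17.6 and 23.2 CPM in the rest (log2 fold change 3.30 ± 0.33 SE). The VEGF receptor kdr had 26.8, 121 and 479 CPM in members, against 3.51, 8.69 and 13.1 CPM in the rest (3.50 ± 0.38). Only tek had a sample without a member UMI, and neither gene of the pair had a UMI in the members with col4a1 alone, described below. ANGPT2 (LOC106589817), a ligand of TEK, was called higher on 11 UMIs (2.11 ± 0.55) and was higher in 5 of 8 samples.

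In the Notch pathway list, which also holds ephrin-B2, the calls were divided. Of 12 loci tested, 6 were called higher by TMM, 8 by library size and 6 by DESeq2, and 0 were called lower by all 3. Over all genes tested, 2.57%, 4.51% and 2.61% were called higher under these scalings. By TMM alone 1 was called lower, the receptor notch2 (LOC106613830). Its pooled level in members was 0.42 times that of the rest, below it in 8 of 8 samples and without overlap. The list's rbpj, not among the loci tested, had no UMI in members. The gene efnb2, ephrin-B2, had 195, 447 and 2049 CPM in members at the lowest, median and highest sample, against 27.4, 39.5 and 52.4 CPM in the rest, with a log2 fold change of 3.28 ± 0.28 (SE). Its ranges did not overlap, although 72 of its 183 UMIs lay in the deepest nucleus, without which members had 537 CPM. The Notch ligand DLL4 (LOC106589077) had 161, 279 and 1622 CPM in members, against 34.4, 57.2 and 123 CPM in the rest (2.06 ± 0.29), and 52 of its 130 UMIs lay in the deepest nucleus, without which members had 377 CPM. A second ligand, jag2b (LOC106571712), was called at 3.72 ± 0.38. Target transcription factors HEY2 (LOC106571366, 3.67 ± 0.42, 10 of 26 UMIs in the deepest nucleus) and hey1 (LOC106588818, 2.95 ± 0.37) and the receptor NOTCH1 (LOC106585423, 1.20 ± 0.28) completed the calls. HEY2 and hey1 were higher in 6 of 8 samples. The second NOTCH1 locus, LOC106579992, was not called (0.67 ± 0.35, adjusted p = 0.136), nor were the ligands jag1 (0.03 ± 0.42) and dll4 (LOC106608273, 0.86 ± 0.45) or the targets nrarpa (LOC106561514, -0.95 ± 0.46) and NRARP (LOC106568448, 0.62 ± 0.33). The deepest nucleus held 6 of 18 UMIs of jag1, 6 of 17 of this dll4 locus and 4 of 12 of nrarpa.

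Basement membrane genes, which encode the sheet of matrix under endothelium, were mixed. Of 18 loci tested, 6 were called higher by TMM, 8 by library size and 7 by DESeq2, beside 2.57%, 4.51% and 2.61% of all genes tested. By TMM 5 were called lower, beside 12.6% of all genes tested, and 1 locus was called lower by all 3. The higher ones were the laminin chains LAMA4 (LOC106571319, 2.70 ± 0.42 SE on the log2 scale) and LAMB1 (LOC100286412, 2.59 ± 0.51), nid2 (a nidogen that links laminin to collagen, 2.07 ± 0.46), COL4A2 (LOC106586671, the partner chain of col4a1, 1.87 ± 0.33), the proteoglycan hspg2 (1.83 ± 0.29) and COL15A1 (LOC106590282, 1.63 ± 0.31, but -0.38 with a gate of 2000 CPM). LAMB1 was higher in 5 of 8 samples, and LAMA4 and nid2 in 7 of 8. Lower by all 3 scalings was a second collagen IV alpha-1 locus, LOC106577877 (-1.69 ± 0.23, and -0.96 by library size). That locus had 63.6, 154 and 1954 CPM in members, against 361, 797 and 1577 CPM in the rest, so that its ranges overlapped and its members' level differed widely between samples. Reads of this pair of COL4A1 copies, and of other duplicated loci, could have been split or lost where sequence is shared.

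For vascular tone, 4 of 11 loci tested were called higher under each of the 3 scalings, beside 2.57% to 4.51% of all genes tested. ACE (LOC106579262), the angiotensin-converting enzyme of endothelial surfaces, had 114, 371 and 533.5 CPM in members, against 5.02, 17.0 and 27.0 CPM in the rest, a log2 fold change of 3.65 ± 0.29 (SE) with no overlap. A pair of EDNRA loci (endothelin receptor A, LOC106610225 at 1.91 ± 0.41 and LOC106610223 at 1.62 ± 0.44, but -0.14 with a gate of 2000 CPM) and the shear-responsive factor klf2a (LOC106613686, 1.17 ± 0.29) were the others. By TMM 3 loci of the list were called lower, but 0 by DESeq2, beside 12.6% and 2.90% of all genes tested.

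Mural markers were called beside the endothelial ones, although the direction of 3 of them depended on the gate. All 4 mural and smooth muscle loci tested were called higher under the 3 scalings, beside 2.57% to 4.51% of all genes tested. They were ACTA2 copies LOC106578961 (1.50 ± 0.32) and LOC106589387 (1.50 ± 0.29) and MYH11 copies LOC106589071 (1.21 ± 0.28) and LOC100380663 (1.08 ± 0.26), which encode smooth muscle actin and myosin. With members without a rhag UMI, LOC106578961 turned to -0.059 and none of the 4 was called, and with a gate of 2000 CPM LOC100380663 turned to -0.28 and LOC106589071 to -0.18. The list summed to 572 to 2262 CPM in members, against 169 to 522 CPM in the rest. It was found in 88 members, and its part in the endothelial results was not tested. Among lymphatic markers, stab2, a hyaluronan scavenger receptor, was called higher (2.01 ± 0.43, higher in 6 of 8 samples). The markers prox1 and the lyve1 locus of the list had no UMI in members. Another locus, xlkd1, which bears an older symbol of LYVE1 and was chosen after its values were seen, had 40 UMIs and was called higher (3.39 ± 0.36).

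For collagens and hemoglobins the calls depended on the scaling. In the list of fibroblast and pillar collagens, 1 of 13 loci tested was called higher by TMM (COL6A1, LOC106569732, 1.12 ± 0.29), 5 by library size and 2 by DESeq2, and 0 were called lower. The list summed to 1814 CPM in members of the lowest sample, 14851 CPM in the median and 18924 CPM in the highest, against 2415, 6856 and 12975 CPM in the rest. Of 16 erythrocyte loci tested, 1 was called lower by TMM, and 0 were called higher by TMM or DESeq2 but 8 by library size.

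Several markers of other gill cell types were present in members at lower levels than in the rest. RHCG (LOC106587392), an ammonia channel of gill epithelium, had 254, 623 and 1012 CPM in members at the lowest, median and highest sample, against 1701, 2492 and 3843 CPM in the rest (log2 fold change -2.76 ± 0.21 SE). The pavement list was divided, with 5 of 9 loci called lower under each scaling, and 1 called higher by TMM, 3 by library size and 2 by DESeq2. The keratin KRT18 (LOC106572756) was called higher by TMM (0.77 ± 0.24), and KRT8 (LOC106566973) was higher in 8 of 8 samples without overlap but not past the threshold by TMM (0.66 ± 0.24, adjusted p = 0.0278). For the goblet list, which includes the further mucin-5AC-like locus LOC106602669 (-2.73 ± 0.24), 3 of 3 loci tested were called lower by TMM and 2 by each other scaling. Antigen presentation gene cd74a (LOC106604844) was the myeloid locus called lower (-1.34 ± 0.18, and -0.60 by library size). Of 11 ionocyte loci, 10 were called lower by TMM but 3 by library size and 4 by DESeq2, beside 12.6%, 3.22% and 2.90% of all genes tested. UMIs of these lists were nevertheless widespread, as 141 members had at least 1 UMI of the pavement list and 139 of the ionocyte list, and RHCG (LOC106587392) was found in 73 members.

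Genes of ammonia, acid-base and water transport had 5 of 7 loci called lower under library size and DESeq2 and 6 by TMM. Over all genes tested these shares were 3.22%, 2.90% and 12.6%. The loci tested include the RHCG loci LOC106562250, LOC106587392 and rhcg, which are also counted in the pavement list. Of the loci called lower, rhbg, a basolateral ammonia channel, had a log2 fold change of -1.78 ± 0.23 (SE). For hormone receptors, thrb (thyroid hormone receptor beta) was lower (-1.88 ± 0.27). Calls under all 3 scalings were not reached in either direction by any clock, stress and immediate early, proliferation or T cell locus, and DESeq2 called 0 in these 4 lists. Only 12, 15, 7 and 4 of their loci were tested. Over all 16156 genes tested, 354 were called higher and 433 lower under all 3 scalings. At these shares few calls would fall among so few loci.

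The 10 named genes with the largest negative changes had no UMI in members, so that only a bound can be given, set by 3 counts over all members (13.3 CPM). The level of the rest was 5.10 times this bound for b3gnt2l, 4.11 times for trim25l and 3.48 times for an ARAP1-like locus (LOC106603376). For BTN1A1 (LOC106592896) it was 3.46 times the bound, for mfsd9 3.31 times and for itpka 3.29 times. The other 4, abcg2, grb7, mmp13 and trdc, did not pass the threshold by DESeq2. By TMM, 225 genes without a UMI in members were called lower, and these 10 were picked among them. The bound covers counting error only, and neither this choice nor the spread between samples enters it.

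Seen nucleus by nucleus, endothelial transcripts were common but not universal among members. A UMI of the endothelium list was found in 76.5% of members (exact 95% interval 68.9 to 83.1), in 96.2% of rhag-high vascular nuclei (86.8 to 99.5) and in 24.2% of the rest. Nuclei with 2 or more RHCG UMIs and no gate UMI, which should lack these genes, gave 20.6% at a median of 1022 UMIs, against a median of 1219 in members. With nuclei thinned to a common 500 UMIs the shares were 59.7% of members, 88.2% of rhag-high nuclei, 14.8% of the rest and 10.2% of the RHCG nuclei, with 775 nuclei of the rest, 223 of the RHCG nuclei and 1 rhag-high nucleus left out as shallower. The share in members stood well above that background. At least 3 endothelial loci were found in 62 members, and 35 members had none. In the rest, 804 nuclei had at least 3, of which 42 were rhag-high. The 169 nuclei with 2 or more gate UMIs but under the level had an endothelial UMI in 88.8% (46.2% thinned). Members were thus only part of the nuclei with endothelial transcripts.

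Members differed among themselves by which gate gene they carried. LOC106577588 alone was found in 93 members, both genes in 30 and col4a1 alone in 26. Endothelial UMIs were found in 76 of the 93, in 27 of the 30 and in 11 of the 26, and after thinning the shares were 64.5% (exact interval 53.9 to 74.2), 73.3% (54.1 to 87.7) and 26.9% (11.6 to 47.8). The endothelium list summed to 3227 CPM with LOC106577588 alone, 5907 CPM with both and 1066 CPM with col4a1 alone, and members with LOC106577588 alone were above those with col4a1 alone in 6 of the 7 samples that had both. Of the 23 endothelium loci with a UMI in members, 9 had none in the nuclei with col4a1 alone, which held 31890 UMIs, and 11 were present but lower per UMI than with LOC106577588 alone. The 9 included vwf, pecam1a, flt1, kdr and tek. The other 3 were higher with col4a1 alone, such as cldn5a (LOC106580434) at 41.3 CPM with LOC106577588 alone and 125 CPM with col4a1 alone, on 5 and 4 UMIs. The thinned share of 26.9% with col4a1 alone lay below that of the other members and below the 34.3% of nuclei with 1 gate UMI. Its interval lay above the 10.2% of RHCG nuclei but held the 14.8% of the rest. No endothelial locus was found in 15 of these 26 nuclei, so that the vascular label is not established for them as a class. A split of all members by the number of gate UMIs also showed a difference. Endothelial UMIs were found in 57 of the 89 members with exactly 2 gate UMIs and in 57 of the 60 with 3 or more. After thinning the shares were 51.7% (exact interval 40.8 to 62.4) and 71.7% (58.6 to 82.5). What part the number of gate UMIs had in the difference by gate gene was not tested.

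**Figure D2:**
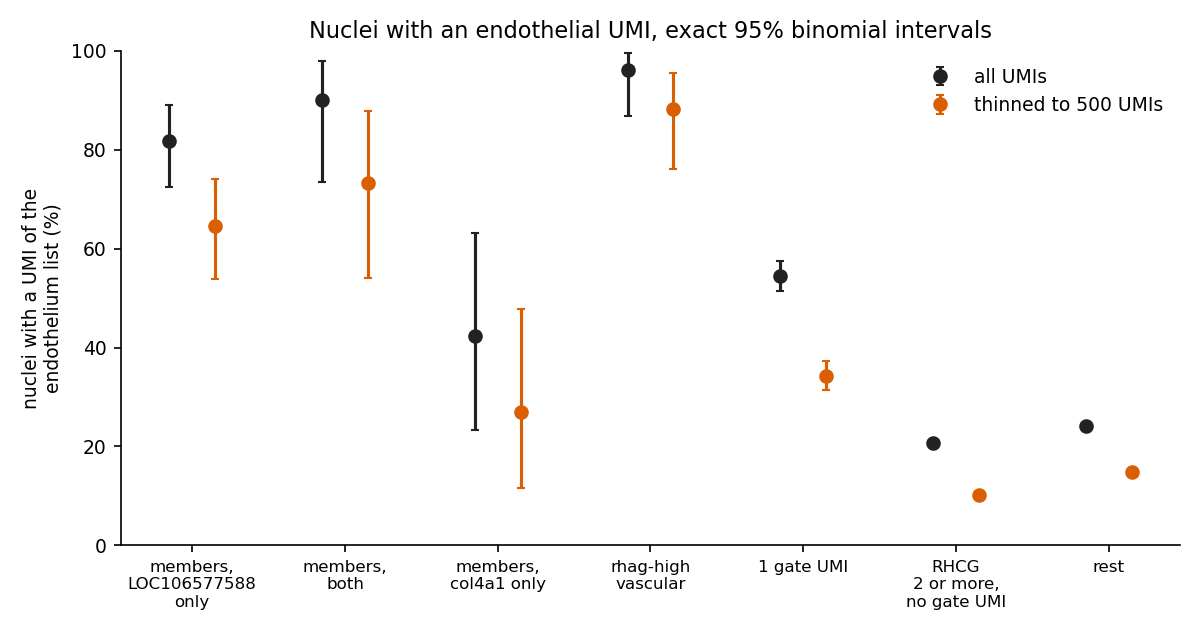
Percent of nuclei with at least 1 UMI of the endothelium list, as deposited (black) and after thinning to 500 UMIs (orange), with exact 95% binomial intervals. Members with col4a1 alone stood at 42.3% (26.9% thinned), below members with LOC106577588 alone at 81.7% (64.5% thinned) and above nuclei with 2 or more RHCG UMIs at 20.6% (10.2% thinned). Their thinned interval (11.6 to 47.8) held the 14.8% of the rest.

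The nuclei with col4a1 alone had high pooled levels of matrix and of some mural genes, and the pooled levels did not always hold within samples. SPARC (LOC106604192), a matrix glycoprotein that binds collagen, stood at 561 CPM with LOC106577588 alone, 527 CPM with both genes and 2854 CPM with col4a1 alone, where 27 of its 91 UMIs came from 1 nucleus. It was higher with col4a1 alone in 6 of 7 samples. The second COL4A1 locus, LOC106577877, stood at 322, 236 and 2854 CPM in the same order, but it was higher with col4a1 alone in 3 of 7 samples and lower in 4, and 56 of its 91 UMIs came from T4 replicate 1. The list of fibroblast and pillar collagens stood at 10257, 9679 and 21480 CPM and was higher with col4a1 alone in 6 of 7 samples.

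The mural list stood at 1213 CPM with LOC106577588 alone, 1983 CPM with both genes and 1693 CPM with col4a1 alone. Thinned to 500 UMIs, 33.3%, 50.0% and 38.5% of the nuclei had a UMI of it, against 12.7% of the rest. The ACTA2 copy LOC106578961 stood at 165, 194 and 533 CPM and was higher with col4a1 alone in 4 samples and lower in 2, and the copy LOC106589387 stood at 305, 499 and 502 CPM and was higher in 2 and lower in 4. A test between these classes was run on 91 genes in 7 samples, although only T4 replicate 1 had 10 nuclei of each class, and the genes called were the 2 that define the classes (1.10% in each direction), so that these differences are given as levels. The sums of col4a1-alone nuclei came from 1 to 5 nuclei in 6 of the 7 samples.

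The nuclei with col4a1 alone were unevenly spread over samples. There were 3 of them among 58 members at T1 and T2 and 23 among 91 members at T3 and T4, and 12 of the 23 came from T4 replicate 1. The paper used a Col4a1 gene as a marker of seawater mitochondrion-rich cells, which are ionocytes, and found it in vascular clusters too. It reported that the share of these ionocytes rose from T1 to T4. Whether nuclei with col4a1 alone belong to them was not tested. Thinned to 500 UMIs, the ionocyte list was found in 69.2% of nuclei with col4a1 alone, 68.8% with LOC106577588 alone and 73.9% of the rest. Its level was higher with LOC106577588 alone in 5 of 7 samples and lower in 2. Restricted to members that carried LOC106577588, an alternative chosen after seeing the data, the comparison with the rest called 339 genes higher and 2249 lower. The second COL4A1 locus, LOC106577877, was likewise uneven in members, with 137 and 63.5 CPM at T1, 97.6 and 171 CPM at T2, 946 and 928 CPM at T3, and 1954 and 73.9 CPM at T4. It was thus low in both early time points and in T4 replicate 2.

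Members made up 5.43 and 6.05 per 1000 nuclei at T1, 5.34 and 7.44 at T2, 8.65 and 11.4 at T3, and 10.3 and 6.04 at T4. Both T3 samples lay above all T1 and T2 samples, and the T4 samples lay above and below the higher T2 sample. The log2 fold change was 0.71 ± 0.31 (SE) for T3 over T2 and 0.80 ± 0.32 for T3 over T1, each with an adjusted p of 0.147 by edgeR, and it was 0.09 ± 0.36 for T2 over T1 and -0.22 ± 0.29 for T4 over T3. None of the 4 contrasts passed 0.05, and 2 samples against 2 cannot go below p = 0.33 in an exact permutation test. Members that carried LOC106577588 were 5.07 and 5.55 per 1000 at T1, 5.04 and 7.44 at T2, 6.77 and 9.68 at T3, and 6.02 and 5.04 at T4, and the log2 fold change of T3 over T2 was then 0.47. In the rest, col4a1 stood at 15.13 and 14.24 CPM at T1 and 10.95 and 7.52 CPM at T2. Its level there was higher later, at 34.56 and 34.45 CPM at T3 and 49.47 and 34.83 CPM at T4. What part this had in the shares of all members, or in the number with col4a1 alone, was not tested.

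**Figure D3:**
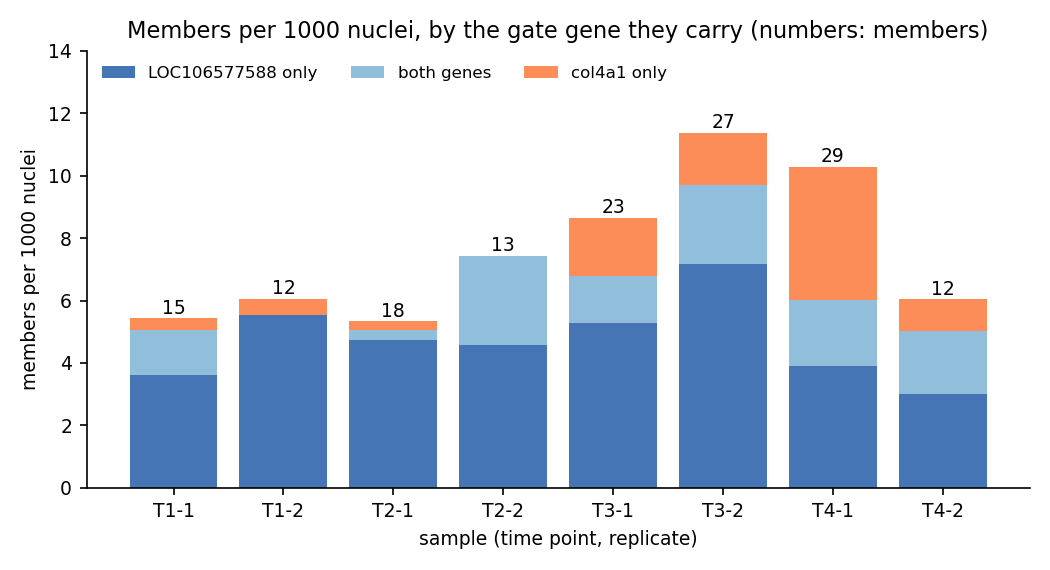
Members per 1000 nuclei in each of the 8 samples, stacked by the gate gene carried, with the number of members above each bar. The T3 samples stood at 8.65 and 11.4 per 1000, and nuclei with col4a1 alone made up 12 of the 29 members of T4 replicate 1.

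Members and rhag-high vascular nuclei, the nearest nuclei of the series, both carried the endothelium list, at 1398, 3417 and 5527 CPM in members at the lowest, median and highest sample, against 2864, 5336 and 12590.5 CPM in rhag-high nuclei. Only T2 replicate 1 and T3 replicate 2 had 10 nuclei of both, and there edgeR called 0 of 312 genes (0%), with 39 at an unadjusted p under 0.05, and DESeq2 called 0. Using every sample with at least 1 nucleus, an alternative chosen after seeing the data, 3 of 244 genes were called higher in members (1.23%) and 5 lower (2.05%), rhag, which the rule uses, being among these 5. The rhag-high nuclei numbered 2 to 12 per sample. Beside rhag, 7 genes were called, against 0 without T3 replicate 2, 3 without T3 replicate 1 and 4 without T4 replicate 2.

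LTBP4 was again the leading gene. It had 97.6, 1200 and 2513 CPM in members at the lowest, median and highest sample, against 0, 66.5 and 629.5 CPM in rhag-high nuclei, and was higher in 7 of 8 samples (log2 fold change 2.94 ± 0.44 SE, adjusted p = 0.00102, edgeR). The gene ahnak (LOC106612274), a large scaffold protein under the plasma membrane, had 537, 1063 and 1677 CPM in members, against 315, 491.5 and 716 CPM in rhag-high nuclei (1.24 ± 0.26, adjusted p = 0.00865), but had an adjusted p of 0.0116 by DESeq2 and 0.0120 by library size alone. LOC106560296, which carries no name, was higher in 8 of 8 samples (2.17 ± 0.39).

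Lower in members were the tight junction gene cld5, the collagen VI chain COL6A3 and a hemoglobin locus. The gene cld5 had 127, 344 and 683.5 CPM in members, against 597, 1721 and 4721 CPM in rhag-high nuclei (-1.85 ± 0.33, adjusted p = 0.00307, edgeR). COL6A3 (LOC106581666) had 320, 431 and 781 CPM, against 944, 1636 and 2000 CPM (-1.52 ± 0.23, adjusted p = 0.00102). Its ranges did not overlap and it was lower in 8 of 8 samples, as cld5 was. HBZ (LOC106607373) was lower in 7 of 8 samples (-0.97 ± 0.19), and hemoglobin subunits together summed to 12892 CPM in members, against 29186 CPM in rhag-high nuclei and 8334 CPM in the rest. What part free hemoglobin RNA had in this was not tested. The unnamed locus LOC106604151 was also lower (-1.69 ± 0.33).

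Other genes did not pass the threshold between these nuclei. The gene ramp2 stood at 2047 CPM in members and 2031 CPM in rhag-high nuclei (-0.15 ± 0.38). The sphingosine-1-phosphate exporter spns2 (LOC106602867) stood at 1110 CPM (808 CPM without the deepest nucleus), against 467 CPM (1.28 ± 0.37, adjusted p = 0.0587), and the matrix protein THBS1 (LOC106608163) at 1492 CPM, against 3660 CPM (-0.91 ± 0.32, adjusted p = 0.113). The Notch-related efnb2 and DLL4 (LOC106589077), not tested there, stood at 813 and 577 CPM in members, against 293 and 101 CPM in rhag-high nuclei. Without the deepest nucleus they stood at 537 and 377 CPM in members.

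**Figure D4:**
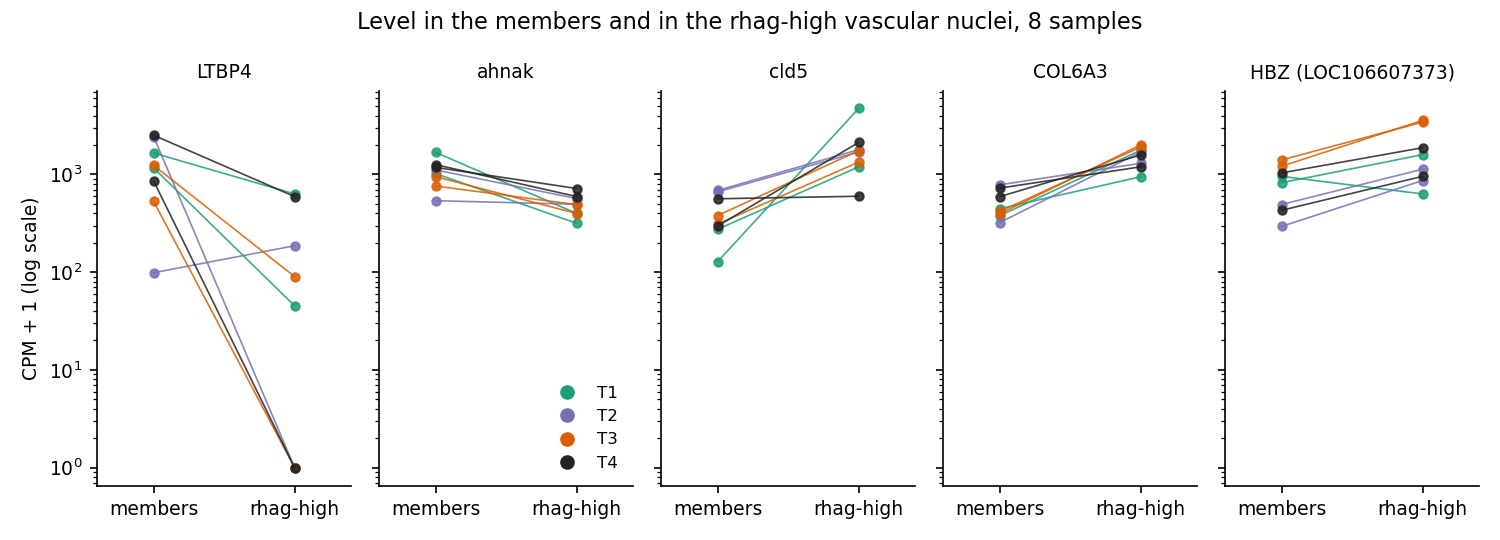
Level of 5 called genes in CPM + 1 on a log axis, members left and rhag-high vascular nuclei right, 1 line per sample. LTBP4 and ahnak were higher and cld5, COL6A3 and HBZ lower in members. LTBP4 had no UMI in rhag-high nuclei of 3 samples.

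Between time points, no gene of the members passed the threshold in the edgeR fit, and calls appeared under some alternatives. Of 530 genes tested, edgeR called 0 (0%) in T2 over T1, T3 over T1, T3 over T2 and T4 over T3. At an unadjusted p under 0.05 by edgeR there were 21, 33, 36 and 10 genes, or 3.96%, 6.23%, 6.79% and 1.89%. These shares lie near or below what this threshold gives without any change. DESeq2 called 0, 0, 1 and 0, with 8, 18, 21 and 3 at an unadjusted p under 0.05. Members without a rhag UMI, in 5 samples, gave 4, 10, 9 and 1 calls, and without T1 replicate 2 there were 10 calls in T3 over T1 and 8 in T3 over T2. The contrasts T3 over T1 and T3 over T2 share the T3 samples.

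The unnamed locus LOC106561182 had 2122 and 1398 CPM at T1, 2490 and 1643 CPM at T2, 227 and 337 CPM at T3, and 241 and 73.9 CPM at T4 in members. Its T3 and T4 levels lay below all T1 and T2 levels (T3 over T2 -2.68 ± 0.48, adjusted p = 0.0221, edgeR). SPARC (LOC106604192) had 274 and 635 CPM at T1, 391 and 277 CPM at T2, 1287 and 1490 CPM at T3, and 1472 and 1183 CPM at T4, again without overlap between the early and late pairs (T3 over T2 2.23 ± 0.46, adjusted p = 0.0543). Nuclei with col4a1 alone, in which SPARC was high, were more numerous at T3 and T4, and their part in this was not tested. In the rest the levels also lay apart without overlap for both genes, at 230.9 to 484 CPM of LOC106561182 and 955 to 1248 CPM of SPARC at T3 and T4, against 828 to 1937 CPM and 405 to 670 CPM at T1 and T2.

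A test of whether the change in members differed from that in the rest called 0 of 21449 genes in all 4 contrasts by edgeR, with 283, 179, 351 and 142 at an unadjusted p under 0.05. Each count lies below what this threshold gives without any difference over 21449 genes. Only 530 genes had enough UMIs in members for the fit by time point, so that for most of these genes the test could hardly call a difference. The absence of calls therefore does not show that members changed like the rest. This interaction was not run with DESeq2. The endothelium list in members stood at 4585 and 1398 CPM at T1, 3222 and 5527 CPM at T2, 3293 and 3542 CPM at T3, and 2623 and 4361 CPM at T4, and the time points overlapped.

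**Figure D5:**
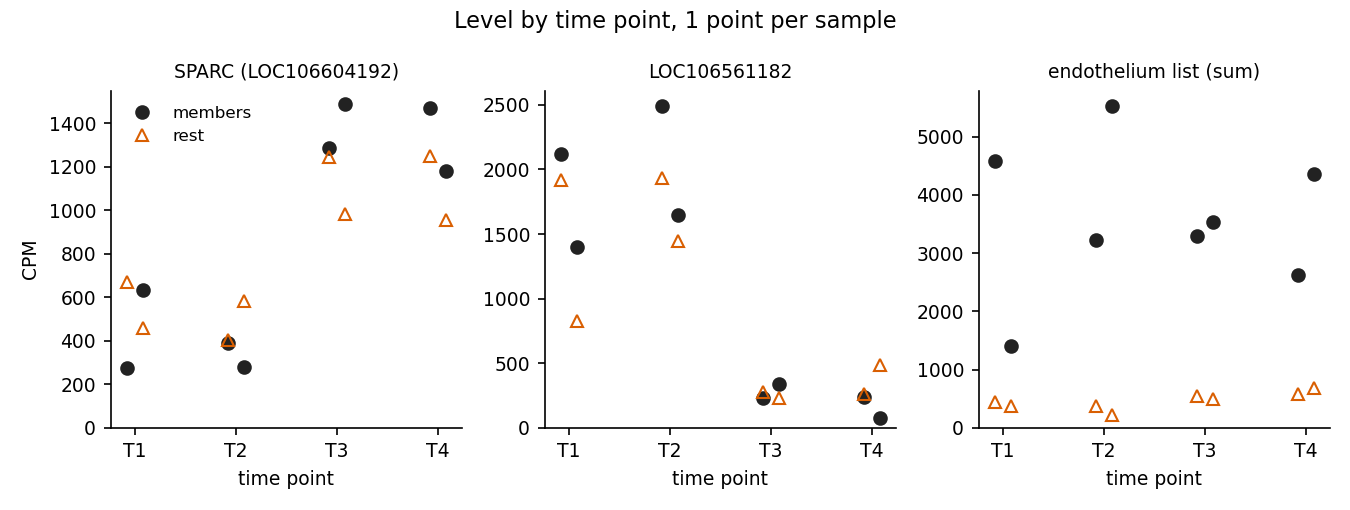
Level in CPM by time point, 1 point per sample, for members (filled) and the rest (open), of SPARC (LOC106604192), LOC106561182 and the summed endothelium list. SPARC stood at 1183 to 1490 CPM in members at T3 and T4, against 274 to 635 CPM at T1 and T2, and the list stood between 1398 and 5527 CPM in members with no order over time.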

How the data were processed

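The deposited files hold UMI counts per gene and nucleus of snRNA-seq (Chromium 3' v3), which the authors made with Cell Ranger (3.1.0 in the extraction notes, 3.0.1 in the submitters' processing notes) on ICSASG_v2 with the NCBI annotation. Every listed gene had counts in at least 3 nuclei of its library, and all listed nuclei were used. UMIs were summed per sample over the members, the rhag-high vascular nuclei and the rest. Sums of fewer than 10 nuclei were not tested, with exceptions. The comparison with every rhag-high sample and that between members by gate gene took samples with at least 1 nucleus of each part. Low genes were removed (edgeR's filterByExpr, min.count 10), and edgeR 4.0.16 under R 4.3.3 was used (TMM, quasi-likelihood test, Benjamini-Hochberg over all genes tested, threshold 0.01 for genes and 0.05 for shares of nuclei). Comparisons within samples had the sample as a block, and contrasts between time points had none.

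Alternatives were DESeq2 1.42.0, library size alone, no filter, a threshold of 0.05, limits of 200 and 2500 detected genes per nucleus, hemoglobin loci removed, a replicate block, other gates (3 UMIs, 2000 CPM, no rhag UMI, a UMI of LOC106577588), nuclei thinned to 1000 UMIs for shares, no sample block, the deepest member of each sample left out, and each sample left out in turn. Those of library size, sample block, deepest member, LOC106577588 and every rhag-high sample were chosen after seeing the data. Genes named are, in each direction, the 10 with the largest log2 fold change past the threshold that carry a name and have 1 sign in every sample, and members of the lists with most UMIs. Members and lists were chosen with earlier results of these data known. Symbols came from the RefSeq gene table, the identifiers and the names in the study's supplement, and 12911 of 34514 identifiers had a name. Levels are CPM of the summed UMIs, which are not per length. The fits were tested on simulated data, in which genes without a change were also shifted downwards under TMM in the comparison with the rest. Python 3.11.15 with scipy 1.17.1 gave intervals. No doublet caller was run, and whole gill RNA was not analysed here. The gene that DESeq2 called between T3 and T2 is not reported here.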

Additional observations from a re-analysis of the deposited data

How the results depend on the processing

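Against the rest, the genes called higher numbered 144 with a gate of 3 UMIs, 93 with no rhag UMI, 37 with 2000 CPM and 728 with library size alone, and those called lower 327, 856, 326 and 520, beside 468 with DESeq2 and 3649 at a threshold of 0.05. These gates left 3, 5 and 3 samples. Leaving out each sample gave 279 to 395 higher and 1457 to 1711 lower, the fewest of both without T2 replicate 2. Signs turned with no rhag UMI for cld5 (-0.14) and the ACTA2 copy LOC106578961 (-0.059). With 2000 CPM they turned for cld5 (-0.63) and the FLI1 copies LOC106581097 (-0.82) and LOC106612965 (-0.74). They also turned there for the MYH11 copies LOC100380663 (-0.28) and LOC106589071 (-0.18), COL15A1 (LOC106590282, -0.38) and EDNRA (LOC106610223, -0.14). The cause was not tested. Without the deepest member of each sample, chosen after seeing the data, 290 were higher and 2089 lower. Against rhag-high nuclei, 3 genes were called without the filter and 7 beside rhag with every sample, where a threshold of 0.05 gave 12 and leaving out samples 0 to 8. Between members by gate gene, 5 were called without the filter and 0 to 2 with samples left out (1 without T2 replicate 1, 2 without T4 replicate 2). By time point, T3 over T2 gave 1 call with DESeq2, 2 without the filter, 2 at 0.05 and 3 with the replicate block, and T3 over T1 gave 1 without the filter and 1 with the block. With no rhag UMI, T2 over T1, T3 over T1, T3 over T2 and T4 over T3 gave 4, 10, 9 and 1 calls in 5 samples, and 2000 CPM gave 1 for T4 over T3. Leaving out samples gave 0 to 10 for T3 over T1 and 0 to 8 for T3 over T2, both most without T1 replicate 2 (T3 over T1 2 without T2 replicate 1 and 1 without T2 replicate 2, T3 replicate 2 or T4 replicate 2, T3 over T2 4 without T1 replicate 1 and 2 without T2 replicate 1 or T4 replicate 2), and 0 for T2 over T1 and T4 over T3. Deviations of same-numbered samples correlated at -0.23 to 0.31, so that the numbers were not taken as pairs. Log2 changes of the share of members ranged with samples left out over -0.09 to 0.38 for T2 over T1, 0.60 to 0.99 for T3 over T1, 0.41 to 0.90 for T3 over T2 and -0.71 to 0.05 for T4 over T3.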

Other observations

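Genes outside the lists, chosen after their values were seen, added to the account of the members. They form no list and are given gene by gene. The gene cav1 (LOC106561554), which encodes a coat protein of caveolae, stood at 127, 423 and 1109 CPM in members at the lowest, median and highest sample, against 36.8, 47.1 and 58.9 CPM in the rest (log2 fold change 2.66 ± 0.27 SE, edgeR). The partner cav2 (LOC106561555) had a log2 fold change of 2.71 ± 0.46, with 7 of its 19 UMIs in the deepest nucleus, and ptrf, which encodes a cavin, 2.22 ± 0.29. Of this pair, ptrf was higher in 6 of 8 samples. The gene spns2 (LOC106602867), which exports sphingosine-1-phosphate from endothelium in mammals and fish, had 293, 894 and 2198 CPM in members, against 97.1, 118 and 242 CPM in the rest (1.99 ± 0.23), and 83 of its 250 UMIs lay in the deepest nucleus.

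Further genes were picked in the same way. The coagulation inhibitor tfpi2 (LOC106588942) had a log2 fold change of 3.53 ± 0.38, the sialomucin podxl (LOC106576226) 3.14 ± 0.29, CD34 (LOC106572541) 1.62 ± 0.35, and the co-receptor neuropilin-1a (LOC106578544) 3.35 ± 0.29. The transcription factors MECOM (LOC106612562, 2.16 ± 0.26), bcl6b (LOC106577630, 4.16 ± 0.38), lmo2 (2.04 ± 0.41) and foxc1 (2.63 ± 0.45) were higher in members. This held for bcl6b and foxc1 in 6 of 8 samples and for lmo2 and podxl in 7 of 8. The unnamed locus LOC106612831 had 268 UMIs in members and one of the largest changes of all (5.19 ± 0.27).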
